A study of Mus musculus with 2 samples.

Results

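The SMAD genes encode the proteins that carry signals of the TGF-β superfamily from receptors at the cell surface to the nucleus. The members were taken as the rows of the deposited count table whose gene name is *Smad1*, *Smad2*, *Smad3*, *Smad4*, *Smad5*, *Smad6*, *Smad7* or *Smad9*, which gave 8 of 24421 rows. RNA-Seq was available for 1 library of primary chondrocytes, prepared by collagenase digestion of the rib cartilage of newborn mice and used within 2 passages, and for 1 library of primary dermal fibroblasts from the dorsal skin of newborn mice. No treatment, genotype or strain is given for these cells, and how many animals each library pooled is not given in the sources used here. The counts summed to 18788599 reads in chondrocytes and 17563724 in dermal fibroblasts. With 1 library per cell type no difference has a replicate check, so no p-value is given, and every interval below is a 95% interval that covers counting error only. The reads carry no molecular identifiers, so copies made by PCR cannot be told from separate molecules and the intervals leave this out.

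In this pathway, ligands assemble type I and type II receptors, and the active type I receptor phosphorylates receptor-regulated SMADs. *Smad1*, *Smad5* and *Smad9* encode those used mainly by bone morphogenetic protein (BMP) receptors, and *Smad2* and *Smad3* those used by TGF-β and activin receptors. Phosphorylated proteins of both branches join the common partner encoded by *Smad4*, enter the nucleus and regulate target genes. The inhibitory SMADs, encoded by *Smad6* and *Smad7*, compete for receptors and partners and recruit ubiquitin ligases, and their genes are themselves induced by the signal, which closes a negative feedback loop. In cartilage, BMP signaling through SMADs is required for the formation and growth of the skeletal anlagen, and TGF-β signaling restrains hypertrophy. In dermal fibroblasts, TGF-β signaling drives production of fibrillar collagen.

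Both libraries held the markers of their labels. All 8 chondrocyte markers examined were over 2-fold higher in the chondrocyte library, beside 11.8% of genes with at least 10 counts. *Col2a1* stood at 1447098 counts against 0, *Acan* at 148105 against 35 and *Col9a1* at 92699 against 1. Of 8 fibroblast markers, 7 were over 2-fold higher in the dermal fibroblast library, with *Col1a1* at 322379 counts against 39143. Transcripts of other cell types were present in each. Skeletal muscle markers summed to 1770 CPM in chondrocytes and 1275 CPM in dermal fibroblasts, and keratinocyte markers to 15.9 and 264 CPM. CPM are counts scaled to a library of 1000000 reads with TMM factors, which estimate the effective library size from genes of ordinary fold. Bulk counts cannot tell a difference in the number of cells of a type from a difference in RNA per cell.

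Among the SMAD genes, 3 of 8 were over 2-fold higher in chondrocytes, and these were *Smad9* and the inhibitory *Smad6* and *Smad7*. Across the table, 11.8% of the 14291 genes with at least 10 counts in a library passed this threshold in the same direction, and 8.79% of the 11162 genes with at least 100 counts, to which all 8 SMAD genes belong. None of the 8 was over 2-fold higher in dermal fibroblasts, a direction in which 16.2% of the former and 13.3% of the latter passed. The other 5 genes, *Smad1*, *Smad2*, *Smad3*, *Smad4* and *Smad5*, lay within 1.3-fold of equality, as did 41.2% of the tested genes and 46.1% of those with at least 100 counts. The 1.3-fold limit is descriptive, and scaling by total counts put *Smad2* outside it, at 0.760. The median log2 fold of the 8 genes was 0.15, beside -0.00348 over all tested genes. A fold is the ratio of CPM in chondrocytes to those in dermal fibroblasts, and where values are paired below, the chondrocyte library stands first.

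**Figure D1:**
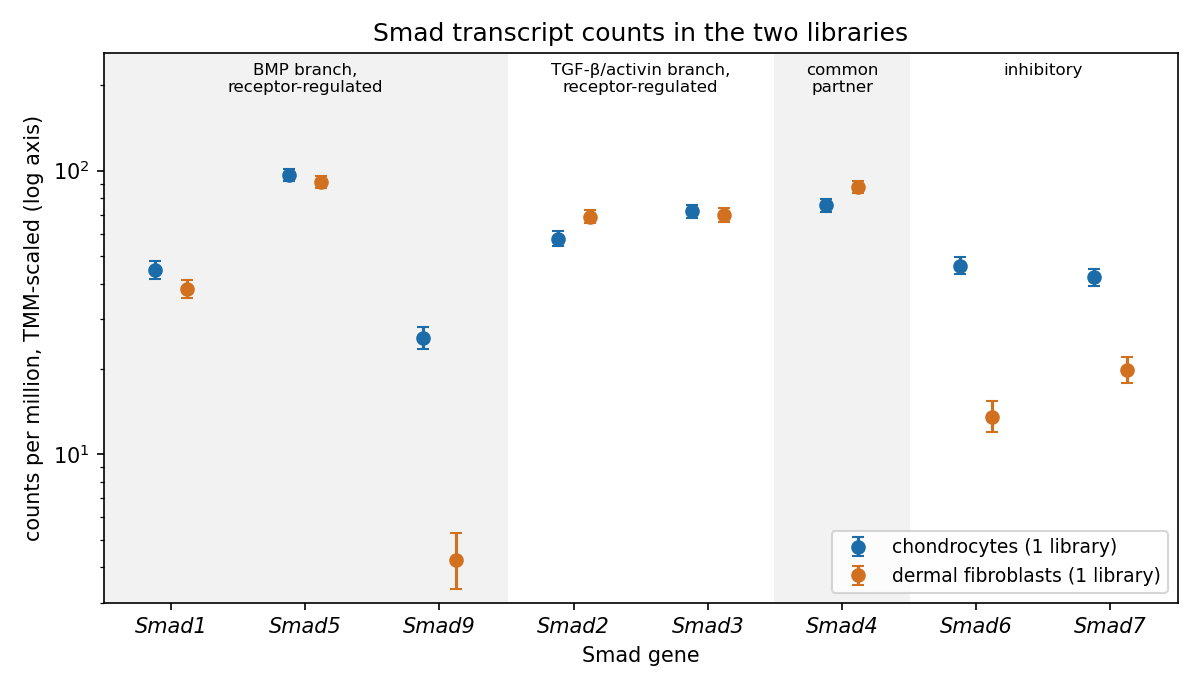
TMM-scaled counts (CPM, log axis) of the 8 SMAD genes in the chondrocyte library and the dermal fibroblast library, grouped by role, with exact Poisson 95% intervals as bars. *Smad9*, *Smad6* and *Smad7* lie apart between the libraries, whereas *Smad3* and *Smad5* nearly coincide.

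*Smad9* showed the largest fold of the family. Its count was 461 in chondrocytes against 78, or 25.7 CPM (interval 23.4 to 28.2) against 4.24 (interval 3.35 to 5.29). This was 6.07-fold higher in chondrocytes, with a counting interval from 4.77 to 7.82. A larger fold was found for 3.10% of the tested genes. The gene lies on chromosome 3 of GRCm38 (54755455 to 54801662).

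The remaining receptor-regulated genes of the BMP branch were nearly level. *Smad5* was the most abundant SMAD gene by read count in each library, with 1728 and 1684 counts, or 96.4 and 91.5 CPM. Its fold of 1.05 (interval 0.985 to 1.13) was not distinguishable from equality at this depth, and it was 0.959 when scaled by total counts. *Smad1* had 801 counts against 706, 44.7 and 38.3 CPM, and a fold of 1.17 (interval 1.05 to 1.29). *Smad5* lies on chromosome 13 (56703010 to 56742378) and *Smad1* on chromosome 8 (79338395 to 79399428). The difference of *Smad9* from its relatives does not depend on how the libraries are scaled. There were 0.182 *Smad9* reads for each read of *Smad1* and *Smad5* together in chondrocytes (interval 0.165 to 0.201) and 0.0326 in dermal fibroblasts (interval 0.0257 to 0.0409), a 5.58-fold difference (interval 4.35 to 7.24).

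In the TGF-β and activin branch, *Smad3* had nearly the same count in chondrocytes (1289) and in dermal fibroblasts (1288), or 71.9 and 70.0 CPM. Its fold was 1.03 (interval 0.951 to 1.11), with 0.936 under scaling by total counts. *Smad2* had 1031 counts against 1268, 57.5 and 68.9 CPM, and a fold of 0.835 (interval 0.768 to 0.907), which is 1.20-fold more in dermal fibroblasts. *Smad4*, the common partner, had 1356 counts against 1616, 75.6 and 87.8 CPM, and a fold of 0.862 (interval 0.801 to 0.927). Both *Smad2* and *Smad4* stayed below equality under all 6 scalings, between 0.760 and 0.909 for *Smad2* and between 0.784 and 0.938 for *Smad4*. For these 2 genes the interval covers counting error and leaves out variation between animals or cultures, which a single library per cell type does not measure. *Smad3* lies on chromosome 9 (63646766 to 63757994), and *Smad2*, *Smad4* and *Smad7* lie on chromosome 18. In RefSeq, *Smad3* and *Smad7* each overlap a noncoding gene that has no row in the count table, and since the strand setting of the counting is not known, reads of those genes could be among the counts.

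*Smad6*, whose product preferentially inhibits BMP receptors, had 829 counts against 250. In CPM these were 46.2 (interval 43.2 to 49.5) and 13.6 (interval 11.9 to 15.4). The fold was 3.41, with an interval from 2.95 to 3.94, and 6.07% of the tested genes had a larger fold. *Smad6* lies on chromosome 9 (63953076 to 64022085).

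*Smad7*, whose product inhibits both TGF-β and BMP receptors, had 754 counts against 366, or 42.1 (interval 39.1 to 45.2) and 19.9 CPM (interval 17.9 to 22.0). It was 2.12-fold higher in chondrocytes, with an interval from 1.87 to 2.40 that reaches below the 2-fold threshold. Scaled by total counts in place of TMM, its fold was 1.93, so that *Smad7* no longer passed and 2 of 8 genes did. For *Smad9* and *Smad6* even the lower bound exceeded 2-fold, as it did for 7.21% of the tested genes and 6.78% of those with at least 100 counts. At a threshold of 4-fold, passed by 4.99% and 3.59% of these genes, *Smad9* alone of the family remained.

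**Figure D2:**
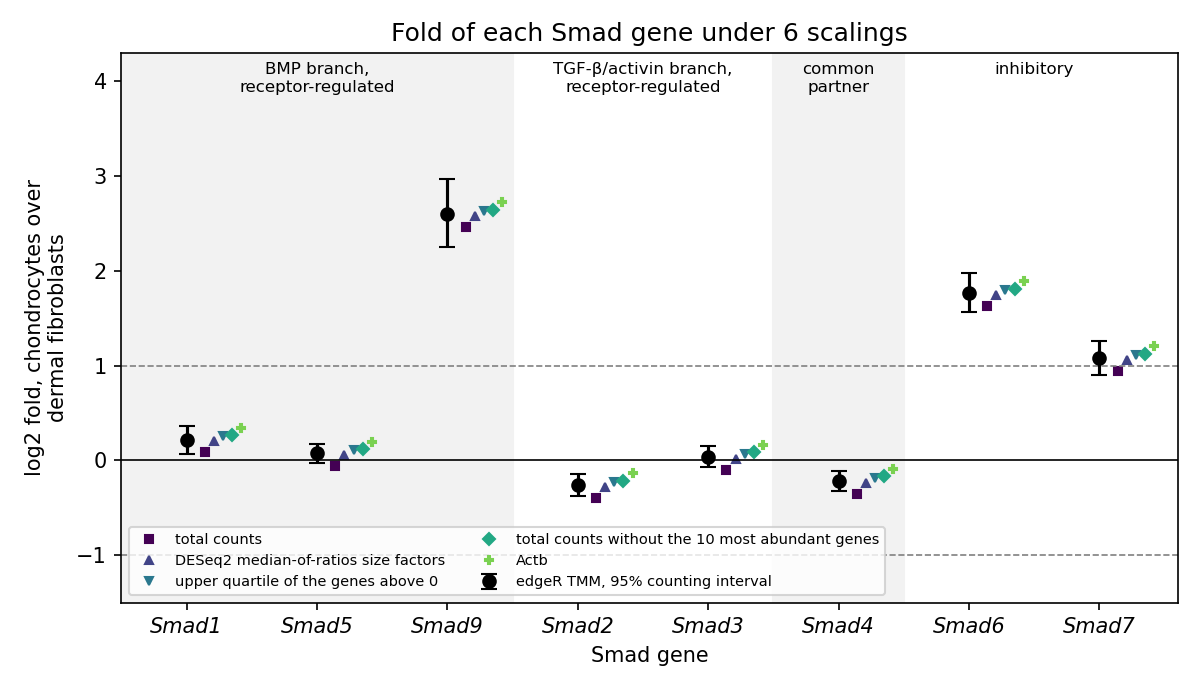
Log2 fold of each SMAD gene, chondrocytes over dermal fibroblasts, with TMM scaling and its 95% counting interval (black) and with 5 other scalings (colored marks). Dashed lines mark 2-fold in either direction, and *Smad7* is the gene that crosses this line, falling to 1.93-fold with total counts.

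Because *Smad9* and *Smad6* held the 2 largest folds, the reference sequence around a start site of each in the RefSeq promoter table is shown. *Smad1*, a BMP-branch relative of *Smad9* with a fold of 1.17, is shown for comparison. *Smad5*, another relative, was more level with a fold of 1.05, and its windows are described below. Each window is written 5′ to 3′ on the strand of the gene and runs from 250 bases before that start to 30 bases from the start on, in RefSeq coordinates of GRCm38.p6, the build of the read mapping. Capitals mark GTCTAGAC, the palindromic SMAD binding element, and GGCGCC, the GC-rich motif bound by SMADs of the BMP branch, both being their own reverse complement so that a match stands on both strands.
*Smad6* (chr9:64022030-64022309, minus strand): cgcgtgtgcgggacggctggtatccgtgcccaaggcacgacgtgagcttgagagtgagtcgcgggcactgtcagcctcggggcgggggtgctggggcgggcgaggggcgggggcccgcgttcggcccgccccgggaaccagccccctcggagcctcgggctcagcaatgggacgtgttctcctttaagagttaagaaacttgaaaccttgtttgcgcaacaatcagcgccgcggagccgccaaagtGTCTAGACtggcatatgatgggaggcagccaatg
*Smad9* (chr3:54755332-54755611, plus strand): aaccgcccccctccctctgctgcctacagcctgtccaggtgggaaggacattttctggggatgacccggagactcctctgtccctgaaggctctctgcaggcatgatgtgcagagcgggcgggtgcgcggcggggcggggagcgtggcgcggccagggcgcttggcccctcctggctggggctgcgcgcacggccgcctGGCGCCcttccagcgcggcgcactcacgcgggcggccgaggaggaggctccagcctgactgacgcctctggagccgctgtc
*Smad1* (chr8:79399399-79399678, minus strand): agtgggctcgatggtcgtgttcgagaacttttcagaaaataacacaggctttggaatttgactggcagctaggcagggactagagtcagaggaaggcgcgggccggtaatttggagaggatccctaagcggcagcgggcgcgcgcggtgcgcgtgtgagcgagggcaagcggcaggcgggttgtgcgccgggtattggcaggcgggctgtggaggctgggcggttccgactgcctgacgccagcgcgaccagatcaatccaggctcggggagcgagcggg

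The start used for the window lies 26 bases inside the outermost 5′ end of the gene given above for *Smad6* and 127 bases inside it for *Smad9*, while for *Smad1* both are the same base. In the *Smad6* window, GTCTAGAC runs from 4 bases before the first base of the window's start site to 3 bases after it, which is 22 to 29 bases downstream of the outermost end. This motif was found in 63 of 32851 such windows of the RefSeq promoter table (0.192%). The *Smad9* window held 1 GGCGCC, from 51 to 46 bases before the window's start site and 76 to 81 bases downstream of the outermost end, a motif found in 10.9% of all windows. Neither motif was found in the *Smad1* window. The promoter table held 7 windows for the family, of *Smad1*, *Smad3*, *Smad5*, *Smad6* and *Smad9*, and none for *Smad2*, *Smad4* and *Smad7*. Of the 3 windows of *Smad5*, 2 that overlap share 1 GGCGCC, and *Smad3* had no match. GGCGCC thus does not set *Smad9* apart from *Smad5*, whose fold was 1.05. The windows were rich in G and C, with 65.4% for *Smad6*, 72.5% for *Smad9* and 63.9% for *Smad1* against a median of 52.5% over all windows. The motifs were chosen after the sequences had been seen, and a match of letters is a description, not a binding site.

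The order of the folds was *Smad9*, *Smad6*, *Smad7*, *Smad1*, *Smad5*, *Smad3*, *Smad4* and *Smad2*. Ratios between the folds of 2 genes are free of library scaling, and all 28 pairs were compared. The counting interval left out equality for 24 pairs, among them every pair that holds *Smad9*, *Smad6* or *Smad7*. The fold of *Smad9* was 1.78 times that of *Smad6* (interval 1.34 to 2.39), that of *Smad6* was 1.61 times that of *Smad7* (interval 1.33 to 1.95), and that of *Smad7* was 1.82 times that of *Smad1* (interval 1.54 to 2.14). Of the 7 neighboring pairs in this order, *Smad1* and *Smad5*, *Smad5* and *Smad3*, and *Smad4* and *Smad2* did not differ beyond counting error.

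The receptor-regulated and inhibitory classes were then compared within each library. The 5 receptor-regulated genes summed to 5310 counts for the chondrocyte library against 5024, a fold of 1.09 (interval 1.04 to 1.13). The 2 inhibitory genes summed to 1583 and 616 counts, a fold of 2.64 (interval 2.40 to 2.90). For each inhibitory read there were thus 3.35 receptor-regulated reads in chondrocytes (interval 3.17 to 3.55) and 8.16 in dermal fibroblasts (interval 7.50 to 8.88). The ratio was 2.43-fold higher in dermal fibroblasts, with an exact conditional interval from 2.20 to 2.69. Counted per kilobase of exon, which allows levels of different genes to be set side by side, the ratios were 2.27 and 5.93, and they differed 2.61-fold. The difference was 1.95-fold with *Smad7* as the sole inhibitory gene and 3.14-fold with *Smad6* alone. Leaving out any of the receptor-regulated genes kept the difference inside the interval of the full comparison.

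Pairings by branch split the same counts and so add no separate support to the class ratio. *Smad9* was left out of the pairing with *Smad6*, which widens the difference, since *Smad9* was itself higher in chondrocytes. Set against both inhibitory genes, the BMP branch gave 1.60 and 3.88 without *Smad9* and 1.89 and 4.01 with it. The libraries thus differed 2.43-fold without *Smad9* and 2.12-fold with it. Reads of *Smad1* and *Smad5* outnumbered those of *Smad6* by 3.05 to 1 in chondrocytes and by 9.56 to 1 in dermal fibroblasts. Reads of *Smad2* and *Smad3* outnumbered those of *Smad7* by 3.08 to 1 and 6.98 to 1. Within the inhibitory pair, the ratio of *Smad6* to *Smad7* reads was 1.10 in chondrocytes (interval 0.995 to 1.22) and 0.683 in dermal fibroblasts (interval 0.579 to 0.804). Between the branches, the BMP genes had 1.29 reads for each read of the TGF-β genes in chondrocytes (interval 1.22 to 1.36) and 0.966 in dermal fibroblasts (interval 0.913 to 1.02). These read ratios depend on gene length. Per kilobase of exon, BMP to TGF-β was 0.873 and 0.615, so the BMP genes were lower in each library. *Smad6* to *Smad7* was then 1.58 and 0.984.

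As shares of all SMAD reads, 8249 in chondrocytes and 7256 in dermal fibroblasts, the inhibitory genes took 19.2% (exact binomial interval 18.3 to 20.1) and 8.49% (interval 7.86 to 9.15). *Smad9* took 5.59% (interval 5.10 to 6.11) and 1.07% (interval 0.851 to 1.34). *Smad1* took nearly equal shares, 9.71% and 9.73%, and *Smad4* took 16.4% in chondrocytes and 22.3% in dermal fibroblasts. All SMAD reads together came to 460.2 CPM in the chondrocyte library and 394 in the other. The resulting fold was 1.17 (interval 1.13 to 1.21) and ranged from 1.06 to 1.27 over the scalings. Without *Smad6*, *Smad7* and *Smad9* the fold of the sum was 0.971 (interval 0.938 to 1.01). These genes hold the largest folds of the family, so a lower value without them was fixed in advance. The value holds for TMM, and every log2 fold moved by -0.14 with total counts and by 0.12 with *Actb*.

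**Figure D3:**
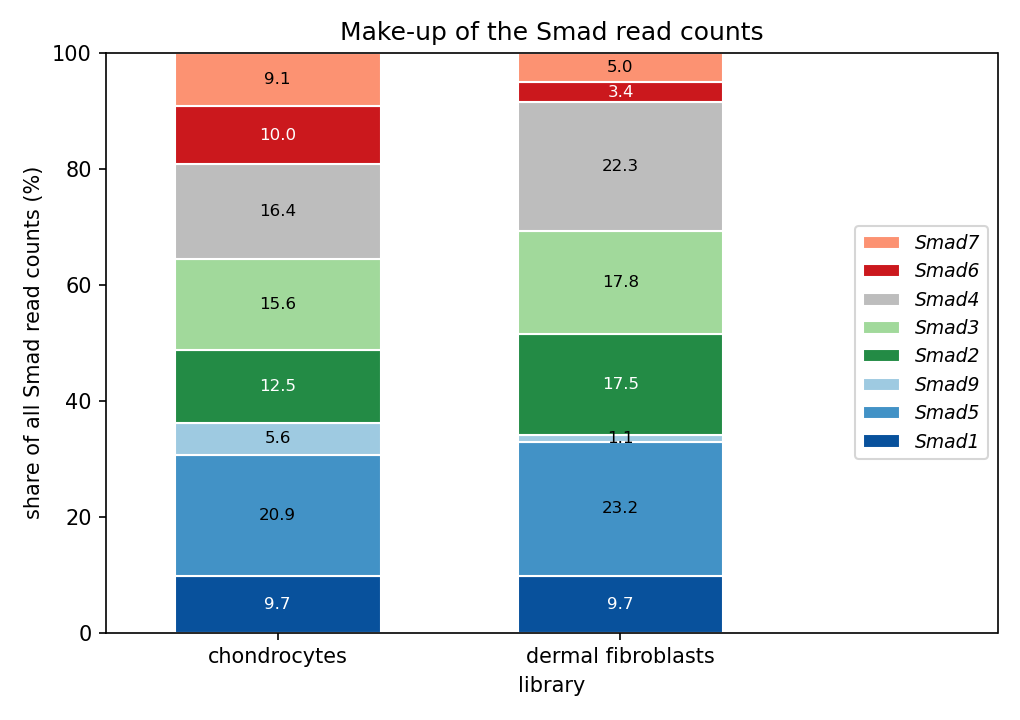
Share of each SMAD gene in all SMAD read counts of each library (percent, bars from 0 to 100), with 8249 reads in chondrocytes and 7256 in dermal fibroblasts. *Smad6* and *Smad7* (red and salmon) and *Smad9* (light blue) take larger shares in chondrocytes. *Smad2*, *Smad3*, *Smad4* and *Smad5* take larger shares in dermal fibroblasts. The shares of a library sum to 100%, so larger shares of some genes lower those of others.

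Levels of different genes were compared as CPM divided by the exon length in kilobases (FPKM), with exon lengths from GENCODE vM1. In chondrocytes the order was *Smad4* (20.4 FPKM), *Smad2* (16.2), *Smad6* (14.7), *Smad5* (13.0), *Smad3* (13.0), *Smad7* (9.30), *Smad1* (7.69) and *Smad9* (4.79). In dermal fibroblasts it was *Smad4* (23.6 FPKM), *Smad2* (19.4), *Smad3* (12.6), *Smad5* (12.3), *Smad1* (6.60), *Smad7* (4.40), *Smad6* (4.33) and *Smad9* (0.789). *Smad4* was thus the highest and *Smad9* the lowest in each library. *Smad6* ranked 3 of 8 in chondrocytes and 7 of 8 in dermal fibroblasts. Neighbors that did not differ beyond counting error were *Smad5* and *Smad3* in each library and *Smad7* and *Smad6* in dermal fibroblasts. The family spanned 4.25-fold in FPKM in chondrocytes and 29.96-fold in dermal fibroblasts. The annotation that the authors counted on is not given in the sources used here, and with the longest transcript in place of all exons *Smad1* passed *Smad7* in chondrocytes and *Smad6* passed *Smad7* and *Smad5* passed *Smad3* in dermal fibroblasts.

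The genes nearest to *Smad9* in log2 CPM over the 2 libraries were *Cyb5r2* (454 and 85 counts), *Hoxa7* (472 and 87) and *Mira* (511 and 74). Nearest to *Smad2*, the gene with the lowest fold of the family, were *Rreb1* (1039 and 1277), *Zfp871* (1016 and 1258) and *Zcchc6* (1013 and 1280). With 2 libraries, likeness means only a similar level in each.

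Other genes of the pathway were examined as lists, which were chosen with earlier results of these data known. They held 71 distinct genes, of which 69 were tested, while *Foxh1* and *Sost* had fewer than 10 counts in each library. Of the 69, 12 were over 2-fold higher in chondrocytes and 12 in dermal fibroblasts, or 17.4% each, beside 11.8% and 16.2% of all tested genes. The split depended on the scaling, with 10 and 13 genes under total counts, 14 and 11 under the upper quartile or total counts without the 10 most abundant genes, and 15 and 8 under *Actb*.

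Upstream of the SMADs, 1 of the 7 type I and II receptors for BMP exceeded 2-fold in chondrocytes and 2 did so in dermal fibroblasts, with a median log2 fold of -0.12. The receptor counts here stand beside 11.8% and 16.2% of all tested genes. The type I receptor gene *Bmpr1b*, which acts in cartilage condensation, had 212 counts against 106, a fold of 2.05 (interval 1.62 to 2.62) that came under 2 with scaling by total counts. *Acvrl1*, a type I receptor best known in endothelium, had 204 counts against 765 and was 3.65-fold higher in dermal fibroblasts, and *Acvr2a*, a type II receptor shared by both branches, was 2.12-fold higher there, which came under 2-fold with scaling by *Actb*. Among 6 receptors for TGF-β and activin, 0 were over 2-fold higher in chondrocytes and 3 in dermal fibroblasts, with a median log2 fold of -0.86. *Tgfbr2*, the TGF-β type II receptor, had 3320 counts against 8182 with an excess of 2.40-fold in dermal fibroblasts (interval 2.30 to 2.50). *Acvr2a* stood in this list too, and the remaining receptor gene over 2-fold, *Acvr1c*, named after its values were seen, had only 5 and 18 counts. Among genes with at least 100 counts in a library, 2 of this list were over 2-fold higher in dermal fibroblasts.

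Regulators that act on SMAD proteins formed 3 lists, to be read beside the 72% of all tested genes that lay within 2-fold. Of 12 ubiquitin ligases and deubiquitinases, 11 were within 2-fold and *Wwp2*, a HECT-type ligase that also partners with SOX9, had 12117 counts against 986, a fold of 12.6 (interval 11.8 to 13.5). Of 14 anchors, phosphatases and transport factors, 2 were over 2-fold higher in each direction, 10 were within 2-fold and the median log2 fold was -0.02. *Bambi*, a kinase-less decoy receptor, had 595 counts in chondrocytes against 69 (8.86-fold, interval 6.89 to 11.5), and *Ctdspl*, a small C-terminal domain phosphatase, had 2538 against 646 (4.04-fold, interval 3.70 to 4.41). *Pmepa1*, which sequesters receptor-regulated SMADs of the TGF-β branch, had 845 counts against 4404, which is 5.07-fold more for dermal fibroblasts (interval 4.71 to 5.47), and the related *Ldlrad4* was 3.12-fold higher there. Among 11 nuclear co-repressors and co-activators tested, 9 were within 2-fold, and *Zeb2* and the acetyltransferase gene *Kat2b* were 2.38-fold and 2.16-fold higher in dermal fibroblasts, the latter under 2-fold with scaling by *Actb*.

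Downstream, 7 of the 12 BMP target genes tested were over 2-fold higher in chondrocytes and 0 over 2-fold higher in dermal fibroblasts. Of all tested genes, 11.8% and 16.2% passed in these directions. Among genes with at least 100 counts in a library, 5 of the targets passed in chondrocytes. With scaling by the upper quartile, *Actb* or total counts without the 10 most abundant genes, 9 passed. The median log2 fold of the list was 2.07. *Id1*, which encodes an inhibitor of helix-loop-helix factors, had 1918 counts against 320, a fold of 6.16 (interval 5.47 to 6.95). *Id2*, of the same family, had 1522 against 273 (5.73-fold, interval 5.03 to 6.54), and *Atoh8*, a helix-loop-helix factor, had 1531 against 162 (9.71-fold, interval 8.25 to 11.5). The others were *Bambi*, given above, and, named after their values were seen, *Id3* (3047 and 793 counts), *Dlx5* (93 and 3) and *Msx1* (13 and 1). The list is not uniform, since *Id4* had 387 counts against 547.

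Of the 12 TGF-β target genes, 2 were over 2-fold higher in chondrocytes and 5 over 2-fold higher in dermal fibroblasts, with a median log2 fold of -0.31. The shares of all tested genes were 11.8% and 16.2%. *Ctgf*, a matricellular growth factor that is also abundant in growth plate cartilage, had 43816 counts against 4141 (10.9-fold, interval 10.5 to 11.2). *Postn*, a matricellular protein of fibrous tissue, had 5333 against 39067 and was 7.13-fold higher in dermal fibroblasts, and *Cdkn2b*, a cell cycle inhibitor, was 2.23-fold higher there. *Pmepa1* stood in this list too. Named after their values were seen, *Tgfb1i1* was 2.05-fold higher in dermal fibroblasts and *Snai2* was 2.05-fold higher in chondrocytes. *Tgfb1i1* came under 2-fold with scaling by *Actb*, the upper quartile or total counts without the 10 most abundant genes. *Snai2* came under it with total counts. In dermal fibroblasts 4 targets passed under the upper quartile or without the 10 most abundant genes, and 3 under *Actb*. In chondrocytes 1 passed under total counts and 3 under *Actb*.

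**Figure D4:**
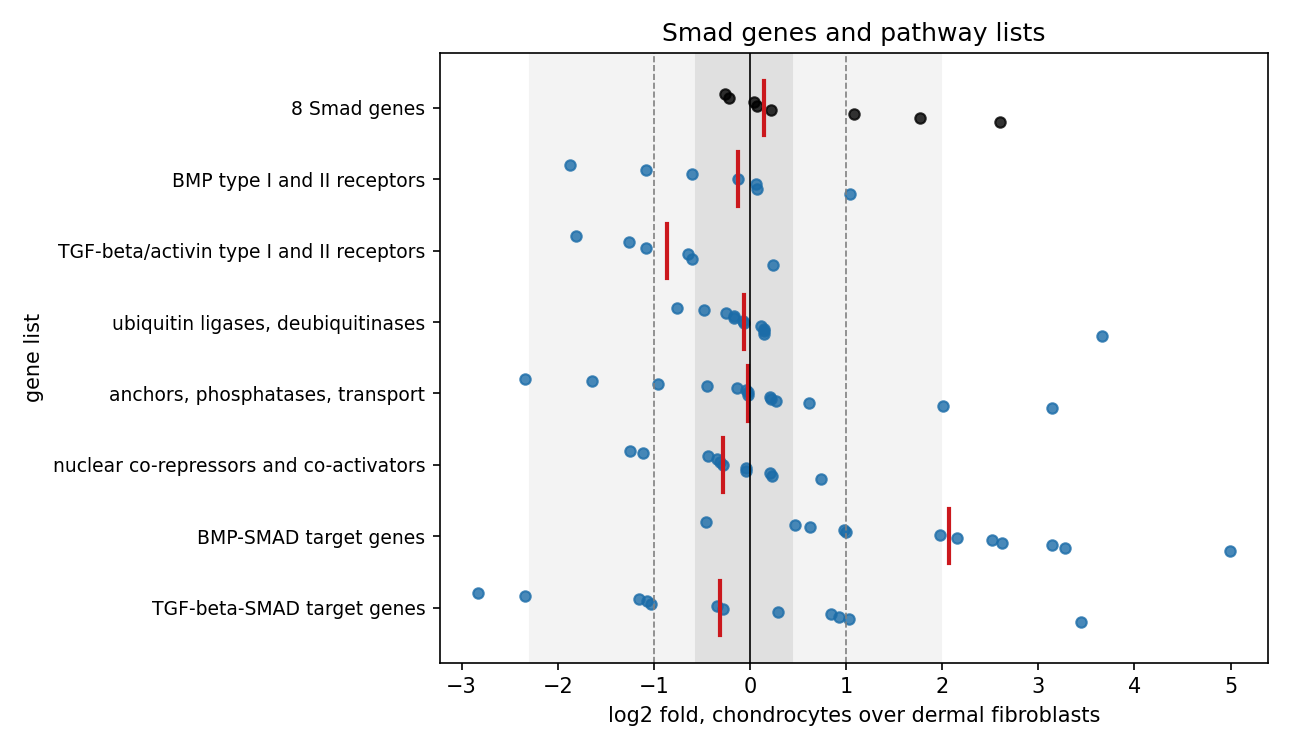
Log2 fold (chondrocytes over dermal fibroblasts) of the 8 SMAD genes (black) and of the tested genes of 7 pathway lists (blue), with list medians in red. Gray bands hold the middle 50% and 90% of all 14291 tested genes, dashed lines mark 2-fold, and counts under 3 were set to 3, which affects *Msx1*.

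Markers of endothelium, where the inhibitory SMADs are also well expressed, were lower in the chondrocyte library. All 8 were detected in each library and all 8 were higher in dermal fibroblasts. Of these, 7 were over 2-fold higher there, beside 16.2% of all tested genes. The endothelial markers summed to 16.1 CPM in chondrocytes and 55.1 in dermal fibroblasts. *Kdr* had 70 and 276 counts and *Cdh5* had 68 and 198. Macrophage markers summed to 109.8 and 172 CPM. Skeletal muscle markers were mixed. In chondrocytes 4 of 8 were over 2-fold higher, beside 11.8% of all tested genes, while 2 of the 8 were higher in dermal fibroblasts. None of the 8 was at 0. The most abundant ones, *Myh3* (7784 and 6497 counts), *Actc1* (7288 and 7970) and *Acta1* (6259 and 4705), lay within 1.4-fold. Markers of hypertrophic chondrocytes summed to 681 and 86.3 CPM, with *Col10a1* at 10378 counts against 3. Of these 4 markers, 3 were over 2-fold higher in chondrocytes, beside 11.8% of all tested genes. *Pth1r* was not, with 1439 and 1581 counts. Its 85.9 CPM made up nearly all of the sum in dermal fibroblasts. The part of endothelial cells, macrophages, muscle cells and hypertrophic chondrocytes in the SMAD counts was not tested.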

How the data were processed

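RNA-Seq counts of 2 libraries, 1 of primary chondrocytes and 1 of primary dermal fibroblasts, were analysed. The authors sequenced stranded mRNA libraries as 75 bp single-end reads, and the submitters' processing notes name CASAVA 1.8.2, TopHat2 2.0.13, Bowtie2 2.2.3, SAMtools 0.1.19 and mm10. The deposited values are raw read counts per gene symbol. The counting program, its annotation and its strand setting are not given in the sources used here. Both columns name their sample, and 27 rows with a date in place of the symbol were kept but not named.

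Scaled counts used TMM factors from edgeR 4.0.16 in R 4.3.3 (0.954 for chondrocytes, 1.05 for dermal fibroblasts). Counts under 3 were set to 3 for folds, and genes with at least 10 counts in a library were tested against a 2-fold threshold. Clopper-Pearson, exact Poisson and exact conditional 95% intervals were computed with scipy 1.17.1 in Python 3.11.15. Those for folds and for ratios of folds were tested on simulated Poisson counts, which hold counting error only. No test across genes was made. Alternatives were 5 scalings, including DESeq2 1.42.0 size factors, floors of 1 and 10 counts, a pseudocount of 1, other thresholds and backgrounds, and leaving out genes. RefSeq promoter windows matched 5 of the 8 genes. The text names the 8 genes, up to 4 members of each pathway list with the largest folds over 2 and at least 100 counts, the 3 most abundant markers of each list and the 3 genes nearest to the members with the largest and smallest fold, of which some markers are given by their sums alone. A target gene counted in a list is not reported here by name. Members and lists were chosen with earlier results of these data known.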

Additional observations from a re-analysis of the deposited data

How the results depend on the processing

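No paired analysis was possible because only 1 library per group was sequenced. Scaling by total counts moved every log2 fold by -0.14 relative to TMM, and scaling by *Actb* moved it by 0.12. Of 64 fold values of the 8 SMAD genes under 8 alternatives each, 56 stayed inside the counting interval and 8 left it. Those 8 belonged to *Smad2*, *Smad3*, *Smad4* and *Smad5* under total counts and *Actb*. The floors of 1 and 10 counts and the pseudocount of 1 could hardly move any fold, since the lowest SMAD count was 78. Their values therefore stayed inside by construction, and only the scalings put the folds to a check. The number of SMAD genes over 2-fold higher in chondrocytes was 3, with 2 under total counts, 2 when the whole interval had to lie above 2-fold, and 1 for a fold over 4. The fold of the summed SMAD counts was 1.17, with 1.06 under total counts, 1.21 under total counts without the 10 most abundant genes and 1.27 under *Actb*. The ratio of receptor-regulated to inhibitory counts, dermal fibroblasts over chondrocytes, was 2.43, with 1.95 without *Smad6* and 3.14 without *Smad7*, which follows from the different folds of these genes. With total counts *Bmpr1b* no longer passed 2-fold, so that 0 BMP receptors did. Depth limits *Smad9* most, with 78 counts in dermal fibroblasts.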
